A study of Aconitum carmichaelii with 4 samples.

Results

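In the monkshood Aconitum carmichaelii, 98 of 128183 assembled unigenes were read at least 100 times in each of the flower, bud and leaf libraries and at most 1 time in the root library. They were selected by that rule, with a length over 500 bases and with no tissue holding 90% or more of the abundance summed over the 4 libraries. The 4 measured values therefore chose the set, and the near absence of root fragments is a description of the choice and not a result. A unigene is a transcript assembled from the reads of all tissues without a genome, and a fragment is a read pair assigned to it.

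Leaf, bud, flower and root were collected from 3-year-old plants grown under natural conditions, with no treatment. RNA of each tissue gave 1 strand-specific poly(A) library, and the labels do not say how many plants each one holds. The libraries held 5400853 fragments in leaf, 6614173 in bud, 7057551 in flower and 4811266 in root. With 1 library per tissue there is no replicate and no test between tissues, and each difference below is a difference between libraries. Intervals are 95% intervals of exact form for counting error only, and do not cover variation between plants or copies made in library preparation.

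A root grows in the dark and takes up water and ions, while leaves, buds and flowers carry green or pigmented tissue. In most seed plants the genes for light capture, carbon fixation and the building of plastids are active mainly in green shoots. In monkshoods the tuberous root is known for storing aconitine-type diterpene alkaloids. By the rule, the 98 unigenes were read in leaf, bud and flower and hardly at all in root. Whether they take part in the functions named above was not tested.

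The labelled tissues could be compared with only a few defining unigenes. In the annotation copies used here, which hold names for 2577 unigenes, a photosystem protein was named for 2. TR1164|c0_g1_i1, named as the photosystem II cytochrome b559 alpha subunit, had 26 fragments in leaf, 2 in bud, 6 in flower and 0 in root. TR1224|c0_g1_i1, named as photosystem II K, had 12, 2 and 3 fragments in leaf, bud and flower and 8 in root. With at most 26 fragments in any library, neither unigene serves as a marker of green tissue here, and photosystem expression was not assessed. The 3 diterpene synthase unigenes that the study names from root, CDPS4, KS1 and KS2, had at most 20 fragments in any aerial library, against 112, 135 and 213 in the root library, and the study chose them on these libraries. In a bulk tissue, fewer cells of one type and less RNA per cell of that type cannot be told apart.

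The limits acted in steps. Of the 128183 unigenes, 46697 were longer than 500 bases, and 5657 of these also reached 100 fragments in leaf, bud and flower. At most 1 root fragment was found for 101 of the 5657. The limit on a single dominant tissue removed 3, all of them highest in leaf, and left the 98. Without regard to root, 5638 unigenes passed the length, aerial and dominance limits, and the 98 were 1.74% of them, a share that the rule itself fixed. Those 5638, the 98 included, are the background against which the 98 are described.

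The same limits turned to another tissue gave far fewer unigenes. At most 1 fragment in leaf, with at least 100 in each of the other 3 libraries, was found for 16 of 4751 unigenes. At most 1 fragment in bud was found for 0 of 4050, and at most 1 in flower for 0 of 3972. Root is the smallest library, which by itself makes a count of at most 1 more likely there. With all fragments scaled to the root total, at most 1 fragment was found for 66 of 4634 unigenes in root, 13 of 4250 in leaf, 0 of 3692 in bud and 0 of 3641 in flower.

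The 98 unigenes together took 262352 fragments in leaf, 71883 in bud and 70905 in flower, against 31 in root, where 67 of them had 0 and 31 had 1 each. These were 4.86% of the leaf library, 1.09% of the bud library and 1.01% of the flower library, against 0.000644% of the root library. Leaf thus gave over 4 times the share of either other aerial tissue. The leaf total leaned on a few unigenes, since 2 of them from a single assembled gene held 28.3% of it and the top 3 held 39.6%.

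Where no root fragment was found, a floor of 3 fragments was taken as the root level that the depth allows. Levels are given as TPM, a transcript abundance that divides fragments by the effective length of a unigene and scales each library to the same sum. The root floor of the 67 unigenes with 0 fragments lay between 0.154 and 1.45 TPM. Their lowest aerial level was at least 20.7-fold to at least 519-fold higher than that floor, with a median of at least 47.6-fold. For the 31 unigenes with 1 root fragment the lowest aerial level was 66.0 to 818 times the root level, and the lower bounds of these ratios were between 11.6 and 147. The plot of levels by unigene shows the empty band between the aerial values and root, whose width the rule set.

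**Figure D1:**
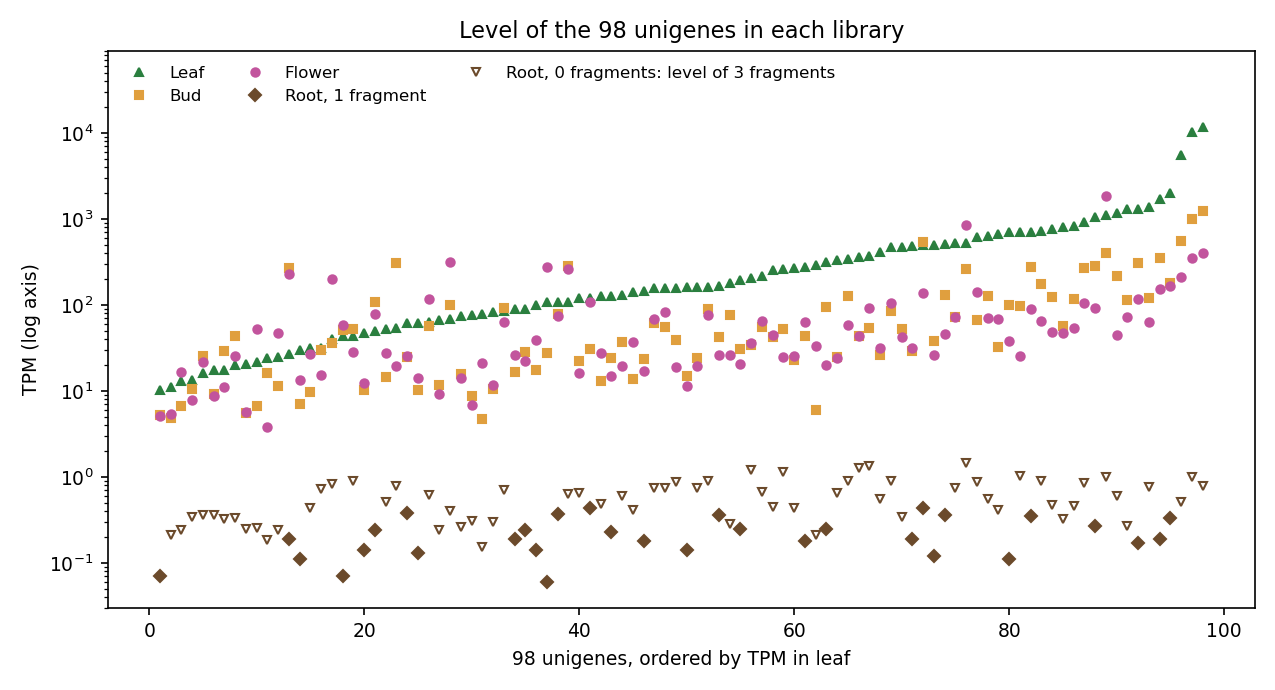
TPM (log axis) of each of the 98 unigenes, ordered by their leaf level, in leaf (triangles), bud (squares), flower (circles) and root (diamonds for 1 fragment, open triangles at the level of 3 fragments where none was read). Leaf spans 10.2 to 11661.5 TPM and lies above bud and flower for 78 of the 98, while root stands below 1.5 TPM throughout.

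Among themselves, the 98 unigenes leaned to leaf. Their median level was 158 TPM in leaf (10.2 to 11661.5), 43.0 TPM in bud (4.74 to 1230) and 38.4 TPM in flower (3.81 to 1862). Over all 5638 unigenes passing the other limits, the medians were 28.2 TPM in leaf, 23.5 TPM in bud, 24.6 TPM in flower and 18.2 TPM in root. In TPM, bud and flower levels were thus somewhat above those of the background, and the leaf level was several times above it. In fragments, the medians were 339 in bud and 373.5 in flower, against 337 and 376 in the background. In leaf the median was 781 fragments against 242. The 98 were also shorter, at a median of 1002 bases against 1679, and TPM divides by effective length. Of the TPM summed over the 3 aerial tissues only, which leaves out the root value used by the rule, the median share in leaf was 71.5% for the 98 and 35.4% for the 5638.

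Leaf was at least 2-fold above both other aerial tissues for 67 of the 98 unigenes, against a background of 14.0% of the 5638. Flower was highest by that fold for 4 (background 2.77%), and bud for 1 (background 1.06%), shares of the 98 that lay near their backgrounds. All 3 aerial levels were within 2-fold of each other for 6 of the 98, whereas 63.6% of the background was that even. At any fold, leaf was the highest aerial tissue for 78 (background 48.1%), bud for 10 (background 25.7%) and flower for 10 (background 26.1%). The interval of the ratio to the next tissue lay above 1 for 74 of the 78 highest in leaf, 7 of the 10 highest in bud and 10 of the 10 highest in flower. The highest and the next tissue were picked from the same counts, so these ratios exceed 1 by construction and the intervals are no test. No background was computed for them.

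Taken pair by pair, leaf was at least 2-fold above flower for 74 unigenes (background 17.8%) and at least 2-fold below it for 6 (background 7.77%). Leaf was at least 2-fold above bud for 76 (background 19.8%) and below it for 5 (background 6.21%). The median log2 ratio of TPM was 2.45 for leaf over flower, against 0.17 in the background, and 2.08 for leaf over bud, against 0.18. Bud and flower were closer to each other and split both ways, with bud at least 2-fold above flower for 24 (background 3.32%) and flower at least 2-fold above bud for 18 (background 8.19%). The median log2 ratio of bud over flower was 0.21, against 0.02 in the background, and its sign turned under 2 other scalings of the libraries, to -0.07 with TMM factors without a minimum and to -0.0033 with DESeq2 size factors, so no direction is drawn between these tissues. The spread within the set was wide, with a ratio of the highest to the lowest aerial tissue of 7.20 at the median (1.37 to 49.3), against 1.72 for the background.

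**Figure D2:**
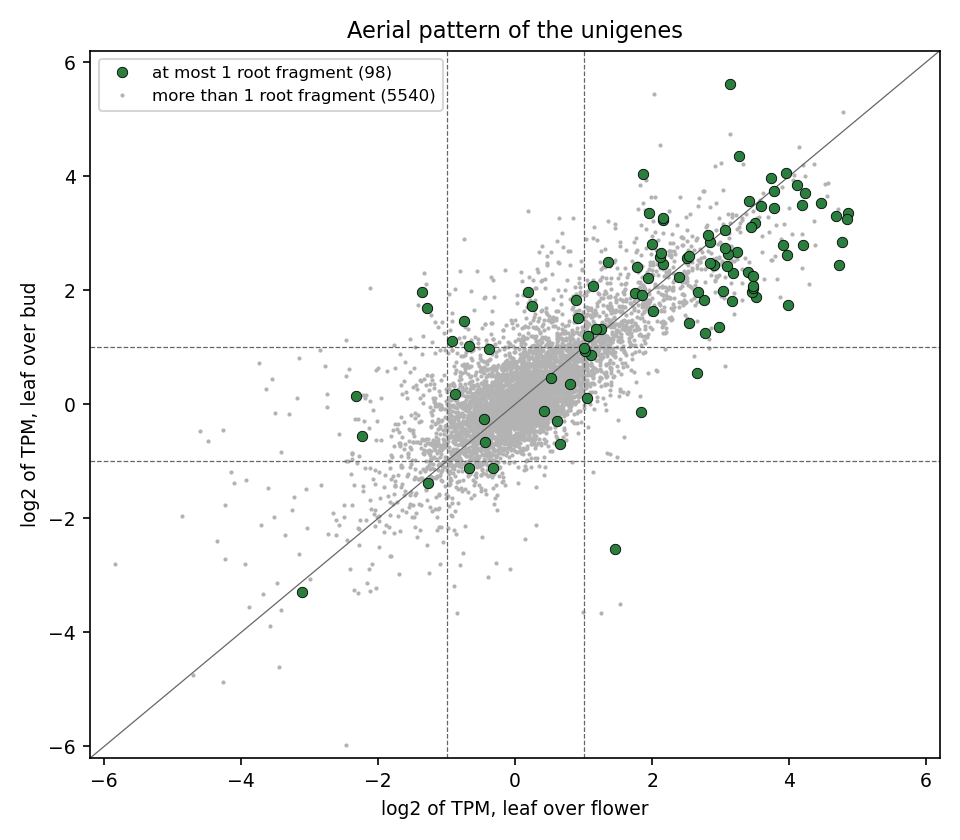
Each point is a unigene placed by its log2 ratio of TPM in leaf over flower (horizontal axis) and leaf over bud (vertical axis), green for the 98 with at most 1 root fragment and grey for the 5540 with more, with dashed lines at 2-fold and a diagonal where bud equals flower. The grey cloud centres near 0 on both axes, and 67 of the 98 green points lie in the upper right field, above 2-fold on both.

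In TPM, flower was at least 2-fold below both leaf and bud for 23 of the 98 unigenes (background 1.65%), bud below both leaf and flower for 14 (background 3.88%), and leaf below both bud and flower for 2 (background 3.41%). Of the 67 unigenes highest in leaf, 20 were also lowest in flower by 2-fold, with bud between, 7 were lowest in bud, and 40 had bud and flower within 2-fold of each other. The excess of flower over bud as the lowest tissue depended on the scaling. In place of 23 and 14, the numbers lowest in flower and in bud were 19 and 18 with TMM factors with a minimum, 18 and 18 without one, and 19 and 18 with DESeq2 size factors, so no order of bud and flower is drawn from them.

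The leaf lean was not a property of the 98 alone, but followed the root count of the background in steps. Leaf was highest at 2-fold for 68.4% of the 98 unigenes with 0 to 1 root fragment and for 51.9% of the 162 with 2 to 10. It was highest for 23.3% of the 1458 with 11 to 100, for 7.51% of the 3409 with 101 to 1000 and for 8.22% of the 511 with more. The share with all aerial tissues within 2-fold ran the other way, at 6.12%, 11.7%, 52.2%, 72.2% and 66.9% in the same order of root counts. The unigenes just past the root limit therefore resembled the 98, and the limit of 1 fragment does not mark a break. All these classes share the same 4 libraries, and TPM is relative within a library.

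**Figure D3:**
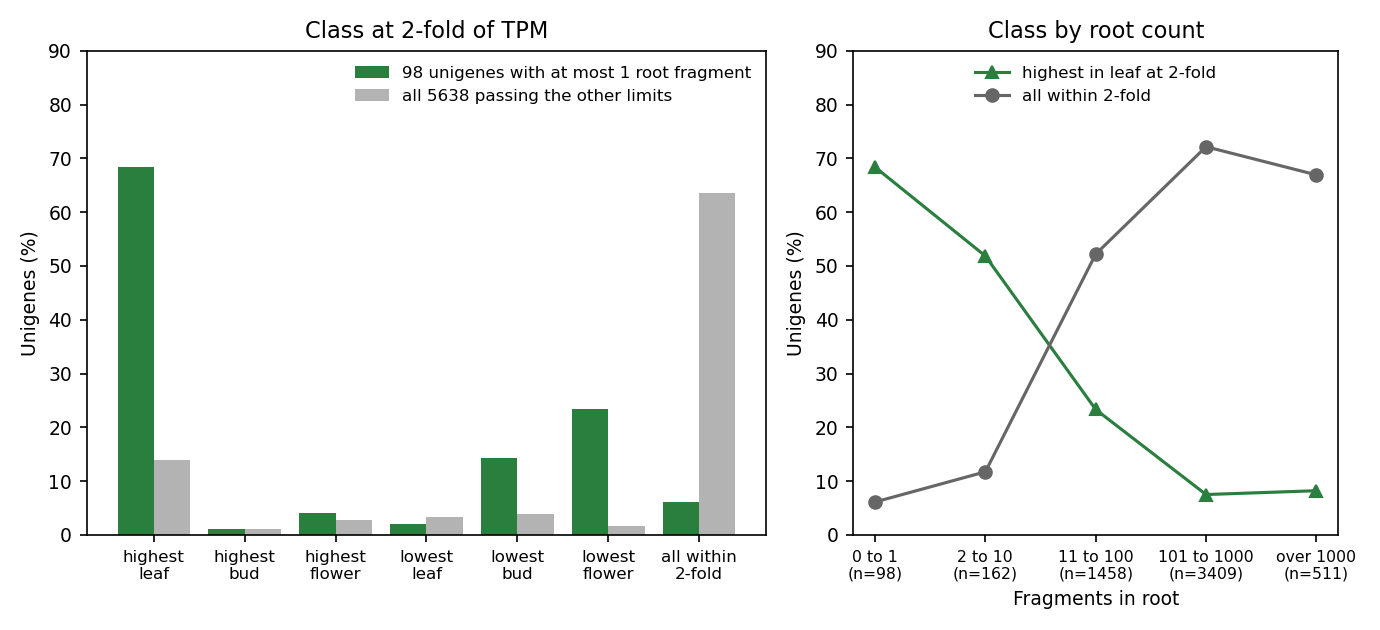
Left, the percentage of the 98 unigenes (green) and of all 5638 passing the other limits (grey) that were highest or lowest by 2-fold in TPM in one aerial tissue, or had all 3 within 2-fold. Right, the percentage highest in leaf (triangles) and within 2-fold (circles) by the number of root fragments, where the first class is the 98 and the share highest in leaf is 68.4%, against 8.22% above 1000 fragments.

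Unigene length moved with these classes. The 98 had a median length of 1002 bases (502 to 3289), with 8 under 600 bases and 13 over 2000, against a median of 1679 bases for the 5638. By root count the median length was 1002, 1233, 1644, 1745 and 1546 bases, from 0 to 1 up to more than 1000 root fragments. Whether length has a part in the leaf share was not tested. Ranked by leaf level, the upper 49 unigenes (159 to 11661.5 TPM in leaf) had a median length of 812 bases and the lower 49 (10.2 to 157 TPM) one of 1294 bases. Bud was at least 2-fold above flower for 20 of the upper 49, against 6.17% of the 470 unigenes with more root fragments and leaf levels from 159 TPM upward. It was so for 4 of the lower 49, against 2.45% of the 4484 in the same leaf range. Of the 11 unigenes above 1000 TPM in leaf, 10 were higher in bud than in flower at any fold. So were 20 of the 27 others from the lowest leaf level of those 11 upward. At 2-fold, bud was above flower for 7 of the 11 and for 37.0% of the 27. A lean to bud at the highest leaf levels was thus also seen outside the set, and whether it is stronger within the set was not tested. These counts are in TPM only, and bud over flower depended on the scaling.

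The most abundant members were a pair from a single assembled gene, TR41702|c0_g1. TR41702|c0_g1_i5, of 786 bases, had 43128 fragments in leaf, 7239 in bud, 2589 in flower and 0 in root, or 11661.5, 1230 and 404 TPM in the aerial tissues. TR41702|c0_g1_i4, of 651 bases, had 29712 fragments in leaf, 4633 in bud, 1768 in flower and 0 in root, or 10269.6, 1007 and 353 TPM. Leaf was 9.49 times bud for the first (9.25 to 9.73) and 10.2 times bud for the second (9.89 to 10.5), so both forms had the same steep order of leaf, bud and flower. Their division is uncertain, because RSEM has to share reads between forms of a gene. Neither carries a name in the annotation copies used here.

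TR35939|c1_g1_i1, of 1116 bases and also without a name here, came next and had the same order. It had 31141 fragments in leaf, 5020 in bud, 2089 in flower and 0 in root, or 5496, 556 and 213 TPM, and leaf was 9.89 times bud (9.60 to 10.2). Its lowest aerial level, in flower, was at least 419-fold above the root floor. For the TR41702 pair the lowest level was at least 519-fold and at least 354-fold above that floor.

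Within the set, the unigenes with the steepest step from leaf to the next tissue were less abundant. The dominance limit caps this step. It removed TR36151|c1_g1_i3 and TR36151|c1_g1_i4, with 4197 and 4870 TPM in leaf against 94.1 and 106 TPM in bud. No link between step and abundance is therefore drawn. TR32720|c0_g1_i1 (1002 bases) had 2441 fragments in leaf, 233 in bud, 274 in flower and 1 in root, and 490 TPM in leaf against 31.7 TPM in flower, the next tissue, a ratio of 15.4 (13.6 to 17.6). TR41034|c0_g1_i1 (1662 bases) had 7212 fragments in leaf, 800 in bud, 721 in flower and 0 in root, with leaf 14.4 times bud (13.4 to 15.5). TR31997|c0_g1_i1 (909 bases) had 1457 in leaf, 173 in bud, 183 in flower and 0 in root, with leaf 13.4 times bud (11.5 to 15.8). In all 3 the bud and flower levels stood close to each other, unlike the graded order of the most abundant forms.

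Flower led a small group with shapes of its own. TR30189|c0_g1_i2 (752 bases) had 1202 fragments in flower, 139 in leaf, 201 in bud and 0 in root, or 199 TPM in flower against 39.8 TPM in leaf, a ratio of 4.99 (4.19 to 5.996). TR40220|c1_g1_i1 (1369 bases) had 3968, 1142, 488 and 0 fragments in flower, bud, leaf and root, and 319 TPM in flower was 3.20 times the 99.7 TPM of bud (2.99 to 3.42). TR45342|c0_g1_i2 (2881 bases) had 7732 fragments in flower, 1734 in leaf, 707 in bud and 1 in root, with flower 2.57 times leaf (2.44 to 2.71). The fourth, TR42610|c0_g1_i1, chosen here after its values were seen to complete the count, had 1011, 118, 238 and 0 fragments in flower, bud, leaf and root. TR45342 and TR42610 were also lowest in bud, so that flower and bud stood at opposite ends of their aerial range.

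A cluster of reads assembled into several unigenes, TR39314, was also highest in flower, but by less than 2-fold over leaf, the next tissue. Trinity, the assembler, numbers clusters of overlapping reads (TR), their components (c), genes (g) and forms (i), and this cluster gave 3 of the 98 unigenes in 3 genes. TR39314|c0_g1_i1 (654 bases) had 9378 fragments in flower, 3218 in leaf, 1856 in bud and 0 in root, and its 1862 TPM was the highest level of the set in flower. TR39314|c1_g3_i3 (502 bases) had 2913, 1062, 826 and 0 fragments, and TR39314|c1_g2_i1 (950 bases) 955, 299, 420 and 0, in the same order of tissues. In the order of naming, flower over leaf was 1.68, 1.59 and 1.84 in TPM, and flower over bud was 4.64, 3.24 and 2.09. Each unigene was highest in flower and lowest in bud. Assembled from the same cluster of reads, they are not counted as separate observations of a pattern.

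Bud led by 2-fold for 1 unigene of the 98, a share near the background of 1.06%. TR28169|c0_g1_i1 (786 bases) had 1827 fragments in bud, 197 in leaf, 124 in flower and 0 in root, and its 310 TPM in bud was 5.83 times the 53.3 TPM of leaf (5.03 to 6.78). The next 2 by this ratio were TR36483|c0_g1_i1 at 1.74 times flower (1.53 to 1.98) and TR46356|c0_g1_i4 at 1.63 times leaf (1.35 to 1.97). TR46356|c0_g1_i4 (1651 bases) had 406 fragments in bud, 156 in leaf, 171 in flower and 0 in root. At any fold, bud was the highest aerial tissue for 10 of the 98 (background 25.7%).

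Leaf was the lowest aerial tissue by 2-fold for a pair of unigenes, named here after their values were seen. TR39565|c2_g1_i3 (995 bases) had 2089 fragments in bud, 1983 in flower, 133 in leaf and 1 in root, or 265, 231 and 26.9 TPM in the aerial tissues. TR48797|c0_g1_i1 (929 bases) had 2042 fragments in bud, 2064 in flower, 495 in leaf and 0 in root, or 282, 262 and 109 TPM. Bud and flower were close in both, at ratios of 1.15 (1.08 to 1.22) and 1.08 (1.01 to 1.14) in that order of naming. These, with TR28169|c0_g1_i1, TR36483|c0_g1_i1 and TR34745|c0_g1_i1 (671 fragments in bud, 537 in flower, 194 in leaf and 1 in root), were the 5 unigenes at least 2-fold higher in bud than in leaf.

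The widest range over the aerial tissues belonged to a unigene with a low bud level, also named after its values were seen. TR46680|c0_g1_i1 (2434 bases) had 3949 fragments in leaf, 778 in flower, 128 in bud and 0 in root, or 292, 33.1 and 5.92 TPM in the aerial tissues, and leaf was 49.3 times bud. Leaf over flower, the next tissue, was 8.81 (8.16 to 9.53). It is the uppermost green point in the plot of leaf ratios.

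The most even unigenes of the set differed by under 1.5-fold across the aerial tissues. TR40120|c0_g2_i2 (2459 bases) had 588 fragments in leaf, 1119 in bud, 1402 in flower and 1 in root, or 43.0, 51.2 and 59.0 TPM against 0.07 TPM in root. TR26497|c0_g1_i1 (602 bases) had 281, 326, 337 and 1 fragments in leaf, bud, flower and root, or 108, 78.9 and 74.9 TPM against 0.37 TPM. TR27547|c0_g1_i1 (855 bases) had 349, 605, 452 and 0 fragments, or 84.9, 92.4 and 63.5 TPM in leaf, bud and flower. For these the difference between the aerial tissues and root, which the rule set, was the only large one.

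Because a unigene can lack root fragments while another form of its gene has them, the other unigenes of each gene were examined. The 98 unigenes came from 93 Trinity genes, and 72 were the only unigene of their gene. The other 26 had further unigenes in their 21 genes (26.5% of the 98, background 45.6%). Those genes held 22 unigenes outside the set, of which 10 had 0 root fragments, 9 had more than 1, and none had more than 10. Over whole genes, 61 unigenes belonged to a gene with 0 root fragments, 89 to one with at most 1, and 9 to one with more than 1, but for the 72 alone in their gene, and for 10 whose gene holds a pair of members, the rule fixed this count. The other 16 had companions that the rule did not select. Those companions had more than 1 root fragment for 8 of the 16, against a background of 92.9% of 2569 unigenes with companions. The 2569 include the members and were not narrowed in the way the 16 were, so the comparison is loose. Companions can also share reads with a member held to at most 1 root fragment, so their root counts are not independent of the rule. The rule thus left the root count of the gene unfixed for 16 of the 98 only, and they were split.

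The form mattered most in TR40220|c1_g1, whose other unigene held the most root fragments of all these companions. TR40220|c1_g1_i2 (1505 bases) had 4743 fragments in bud, 2126 in flower, 377 in leaf and 10 in root. The isoform percent, which is the share of a form in its gene, was 67.5% in flower, 21.1% in bud and 59.0% in leaf for the member TR40220|c1_g1_i1. The peak in flower thus belonged to this member and a peak in bud to the other form. Its spread over the aerial tissues, 46.4 percentage points, was the largest of the 26 members with companions. Over all 26, this one included, the spread was 7.13 points at the median and under 10 for 19. How reads common to both forms were shared adds an error that counting intervals do not hold.

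The other 4 genes named for their companions had 4 to 9 root fragments in those companions. TR43805|c0_g1_i2 (268 fragments in leaf, 101 in bud, 211 in flower and 1 in root) had 3 companions with 5, 1 and 3 root fragments. TR39722|c3_g1_i2 (4002, 704, 614 and 0 in the same order) had a more abundant companion, TR39722|c3_g1_i1, with 6791, 862, 504 and 6. TR35330|c1_g1_i1 (6003, 1375, 567 and 1) had a short companion of 282 bases with 20, 29, 22 and 4. TR46356|c0_g1_i4 had companions with 4 and 0 root fragments. Apart from the short companion TR35330|c1_g1_i2, these root counts were small beside the aerial counts of the same form. That companion had 5.61 TPM in root, from 4 fragments, against 28.5, 26.4 and 18.3 TPM in leaf, bud and flower.

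In 5 genes both forms met the rule. Besides TR41702 these were TR33765|c0_g1, with 4669 and 5154 fragments in leaf, 1209 and 1182 in bud, 515 and 592 in flower and 0 in root for its 2 forms, and TR31495|c0_g1, TR38866|c0_g1 and TR41790|c0_g1. The forms of TR33765 moved together, whereas TR31495|c0_g1_i1 held 69.7% of its gene in leaf, 37.2% in bud and 55.2% in flower. At the wider level of the component, which can join related genes, 16 of the 98 unigenes had more than 1 root fragment, and for 4 the other genes of the component held over 50. These 4 are described for that reason, after their values were seen. TR38586|c2_g1_i1 had 503 fragments in leaf, 132 in bud, 150 in flower and 0 in root, while TR38586|c2_g2_i1 of the same component had 1367, 1288, 1277 and 1353. A member without root fragments thus stood beside a related unigene with similar counts over all 4 tissues. TR41393|c0_g1_i1 had 1793, 241, 293 and 0 fragments in leaf, bud, flower and root, and the 2 forms of TR41393|c0_g2 had 3669 and 2513 in leaf, against 818 and 634 in root. TR40245|c0_g3_i1 had 1106, 163, 139 and 1, against 31, 421, 273 and 365 for TR40245|c0_g2_i3, where root was high and leaf low. The fourth, TR44616|c0_g1_i1, is one of the named unigenes.

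Only 4 of the 98 unigenes carry a name in the annotation copies used here, which are incomplete, so the functions of most of the set are not described. The names rest on the best protein match in another species and not on tests in Aconitum. The 4 were a membrane transporter, a transcription factor, an acyltransferase and a chaperone, and each was set beside the unigenes of its orthologous group, the family of similar proteins in which the study placed it.

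The transporter, TR44616|c0_g1_i1 (2165 bases), was named for a sulfate, bicarbonate and oxalate exchanger, and plant proteins of this family carry sulfate across membranes for uptake and for distribution in the shoot. It had 785 fragments in leaf, 225 in bud, 189 in flower and 0 in root, or 65.8, 11.8 and 9.13 TPM. Leaf was 5.58 times bud (4.80 to 6.49), and the lowest aerial level was at least 38.0-fold above the root floor. Its neighbour in the assembly, TR44616|c0_g2_i1, is almost as long (2164 bases) and had 140 fragments in leaf, 321 in bud, 288 in flower and 81 in root, so the root fragments and the lack of a leaf peak lay in the second gene. Of the 9 unigenes of the family, 3 had their highest TPM in root. TR40054|c0_g1_i1 had 3 fragments in leaf, 29 in bud, 68 in flower and 337 in root, nearly the reverse of the member. TR42857|c1_g4_i1, also of that family, had 43, 24, 389 and 450. Summed over the family, leaf held 1187 fragments and root 1031, so the absence belonged to the unigene and not to the family.

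The transcription factor, TR39420|c0_g1_i1 (1294 bases), was named FUL 2 after FRUITFULL-like MADS-box proteins, which in Arabidopsis act in the passage to flowering, in leaf and in fruit development. It had 320 fragments in leaf, 110 in bud, 145 in flower and 1 in root, or 47.6, 10.3, 12.4 and 0.14 TPM, and leaf was 3.83 times flower (3.14 to 4.69). The other form of the gene, TR39420|c0_g1_i4, had 297, 86, 105 and 1 fragments in the same order and missed the set on the aerial minimum in bud. A second gene of the component had the same order at 2 forms, with 482 and 501 fragments in leaf and 7 each in root. The opposite pattern stood in the same family, where the 3 forms of TR40910|c0_g1 had at most 14 fragments in any aerial library, against 87, 70 and 92 in root. The 7 unigenes thus fell into an aerial group highest in leaf and a root group, and floral tissue was the peak of neither.

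The acyltransferase, TR36483|c0_g1_i1 (1616 bases), was named after a taxol-pathway N-acyltransferase, while its best match was a BAHD-type acyltransferase of Actaea racemosa, a member of the same plant family. BAHD enzymes move acyl groups from coenzyme A thioesters to alcohols or amines in many specialised metabolites, and which substrate this one takes is unknown here. It had 607 fragments in bud, 380 in flower, 175 in leaf and 0 in root, or 44.0, 25.3 and 20.2 TPM, with leaf lowest, unlike most of the set. The 3 other unigenes of its family also had few root fragments, 3, 4 and 18, but only the member reached 100 in every aerial tissue. TR46845|c1_g1_i2, the most abundant of them, had 616, 168, 58 and 4 fragments in flower, bud, leaf and root.

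The chaperone, TR29459|c2_g1_i2, was named heat shock cognate 70, a family that helps proteins fold and is active in nearly every plant cell. It had 263 fragments in leaf, 107 in bud, 400 in flower and 1 in root, or 121, 31.1, 107 and 0.44 TPM, and leaf over flower was 1.14 (0.97 to 1.33), so these tissues are not told apart. At 530 bases it is near the length limit and too short to hold a whole protein of this family. The other form, TR29459|c2_g1_i1, had 289, 85, 380 and 2 fragments in leaf, bud, flower and root. A further unigene of the family, TR42385|c4_g6_i1, had 1013, 1849, 1206 and 834, so root did express the family. Reads of such similar genes can be assigned to one or another copy, and the root value of a single fragmentary unigene is the less certain for it.

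**Figure D4:**
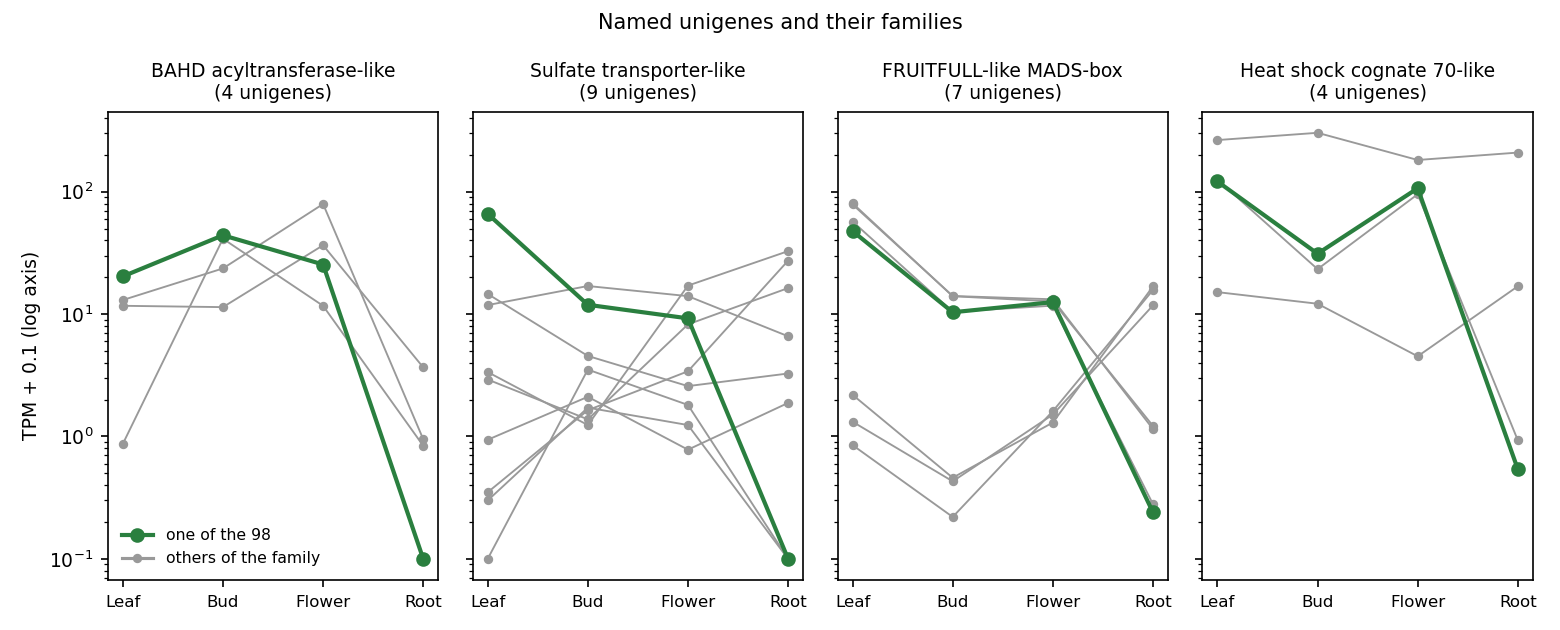
TPM plus 0.1 (log axis, so that 0 stands at 0.1) in leaf, bud, flower and root for the unigenes of the 4 families with a named member, green for the one of the 98 and grey for the others of its family. The green lines drop to at most 0.44 TPM in root, while grey lines of the sulfate transporter and FRUITFULL-like families reach their highest level there, as for TR40054|c0_g1_i1 at 27.2 TPM.

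Unigenes that the study lists for the pathways towards diterpene alkaloids were compared with the limits of the rule. It lists 17 unigenes for the mevalonate pathway, 21 for the plastid MEP pathway, and 14 for the steps after isopentenyl diphosphate, all chosen by their annotation, similarity and length. None of them was among the 98, but few could have been, and at the background share of 1.74% a count of 0 is no result. The aerial minimum was met by 2, 9 and 4 of them in that order of pathways, and at most 1 root fragment was found for 1, 2 and 4, but never both for the same unigene. Those that met the aerial minimum had at least 61, 76 and 6 root fragments. Among those with at most 1 root fragment, CDPS2 (TR48303|c0_g1_i1), a copalyl diphosphate synthase unigene, had the most leaf fragments. It had 84 fragments in leaf, 26 in bud, 5 in flower and 0 in root. Leaf was its highest tissue, as for most of the set, but it was below the minimum in every aerial tissue.

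At the edges of the rule, the root limit left out 32 unigenes with 2 root fragments and 18 with 3, and the length limit left out 10 that met the others. The most abundant just outside the root limit, TR27664|c0_g1_i1 (9504 bases), had 41816 fragments in leaf, 1547 in bud, 17866 in flower and 2 in root. TR39120|c3_g2_i6 likewise had 14792, 1449, 1530 and 2, while the most abundant members with 1 root fragment were TR34702|c1_g1_i1 (8669, 2901, 1358 and 1) and TR37816|c0_g2_i1 (7182, 2708, 1125 and 1). TR35057|c0_g2_i1, with 99 fragments in flower, and TR44528|c2_g1_i4, with 99 in leaf, were just under the aerial minimum, and TR47364|c0_g1_i4 with 100 and TR18424|c0_g1_i1 with 101, both in bud, were just inside it. By length, TR39314|c1_g3_i3 (502 bases) and TR29459|c2_g1_i2 (530 bases) were the shortest inside, and TR30276|c0_g1_i1 (490 bases) and TR33010|c0_g3_i1 (474 bases) the longest outside. The 3 removed for dominance, TR37617|c0_g2_i2 and the 2 forms TR36151|c1_g1_i3 and TR36151|c1_g1_i4, held 90.7%, 96.2% and 96.3% of their TPM in leaf, against 88.9% for TR32720|c0_g1_i1 and 88.7% for TR41034|c0_g1_i1 inside.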

How the data were processed

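Total RNA of leaf, bud, flower and root was sequenced as paired reads, and samples were grouped by their tissue label. Per the labels and the methods, the authors trimmed reads with Trimmomatic, assembled all tissues together with Trinity, reduced redundancy with CD-HIT-EST, aligned with Bowtie 2 and estimated abundance with RSEM. The authors deposited for each library the expected count (fragments per unigene, not normalized, whole numbers here), TPM (length-scaled, fixed library sum), FPKM (scaled to unigene length and to the mapped fragments of the library) and isoform percent (share of a form in its Trinity gene). Their joint FPKM table was identical to these values. No genome or sequence was used.

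The set, its classes and medians were computed with Python 3.11.15, pandas 2.3.3, numpy 2.4.6 and scipy 1.17.1, and plotted with matplotlib 3.10.9. Classes used a 2-fold difference of TPM in place of a test. Ratios carry exact conditional binomial 95% intervals, and a count of 0 allows up to 3 fragments per library. Alternatives changed the limits of the rule, the fold, and the scaling (FPKM, TMM factors of edgeR 4.0.16 with a minimum of 10 summed fragments or none, and size factors of DESeq2 1.42.0, in R 4.3.3). The computations were tested on simulated data.

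Unigenes named are the 3 highest in TPM in each aerial tissue, the 3 with the largest ratio of highest to next tissue for each, the 3 most even, the 5 with most root fragments in their companions, every member with a name, those companions, and 2 on each side of each limit. Members and lists were chosen with earlier results of these data known. Names come from incomplete annotation copies.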

Additional observations from a re-analysis of the deposited data

How the results depend on the processing

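No paired analysis was possible because each tissue had 1 library, and for the same reason no library could be left out. Of 94 alternative values, 64 stayed within the limits set for them and 30 did not. The 98 unigenes became 148 with up to 3 root fragments, 171 with an aerial minimum of 50 fragments and 48 with one of 200, and the set lacking leaf fragments, 16 in the report, became 41 with a minimum of 50. The share highest in leaf at 2-fold stayed between 64.3% and 72.9% over the 8 other versions of the set (background 11.7% to 14.2%). Apart from the version summed over Trinity genes, each lay within the 98 or held all of them. All came from the same libraries, so these shares are not independent of each other. With FPKM, 8 unigenes were highest in flower, 2 in bud, 12 were within 2-fold and 11 were 2-fold higher in flower than leaf (background 4.47%, 1.38%, 60.6% and 16.9%). TMM with or without a minimum and DESeq2 size factors each gave 3 unigenes 2-fold higher in bud than leaf (background 4.04% to 4.40%). At 1.5-fold, 8 were highest in flower, 3 in bud and 3 were even (background 7.20%, 4.03% and 35.2%). At 4-fold, 1 was highest in flower, 3 lowest in flower, 2 lowest in bud, 1 lowest in leaf and 27 were even (background 0.639%, 0.0887%, 0.55%, 0.674% and 87.3%). The number highest in leaf was 60 with FPKM, 70 with TMM with the minimum and with DESeq2 size factors, 66 with TMM without it, 72 at 1.5-fold and 45 at 4-fold (background 9.35%, 15.3%, 15.6%, 14.1%, 21.9% and 5.13%).

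Scaling moved all unigenes together. The median log2 ratio of leaf over flower was 2.04 with FPKM and 2.34 with TMM without a minimum, against -0.24 and 0.06 in the background. Leaf over bud was 1.70 with FPKM, 2.28 and 2.25 with TMM with and without a minimum and 2.31 with DESeq2 size factors, against -0.21, 0.37, 0.35 and 0.40. Bud over flower was 0.019 with TMM with the minimum, and its sign turned to -0.069 without it and to -0.0033 with DESeq2 size factors, against -0.17, -0.26 and -0.19. Over Trinity components 16 unigenes had more than 1 root fragment, and 0 genes had more than 10.

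Tissue and library cannot be told apart here, and plant-to-plant variation is unknown. The root library, with 4811266 fragments, allows up to 3 fragments behind a 0. A count of 0 there therefore does not exclude a root level of up to about 0.154 to 1.45 TPM, depending on the unigene.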
